A study of Mus musculus with 2 samples.

Results

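The genes described here are the machinery that starts DNA replication and runs the replication fork. They were listed by name for their roles; no measured value enters the rule, but the list was drawn up with earlier results of these data known. It comprises 48 genes: the origin recognition complex, licensing factors, the helicase ring and its activators, the replicative polymerases, the sliding clamp and its loader, the enzymes of the lagging strand, and the fork protection factors. A total of 46 were measured among 19505 named genes, each by 1 probe set; Orc5 and Mcm7 were not analysed here. RNA from macrophages grown out of mouse bone marrow was hybridised to whole-transcript GeneChip arrays, with 1 array for the genotype LysM (+);MC4RTB/TB, called LysM (+) macrophages here, and 1 for MC4RTB/TB alone. Both groups are homozygous for the TB allele of Mc4r, the melanocortin 4 receptor gene, and differ in carrying LysM. As background, a TB allele is known as one silenced by a removable transcription block, and LysM (Lyz2) is a promoter widely used to drive Cre recombinase in myeloid cells, macrophages and neutrophils alike; the labels state neither, and give no age, sex or number of mice per sample. Both cultures received M-CSF, the growth factor of macrophage precursors, in medium with 10% serum: 25 ng/mL was given on day 0, a further addition followed on day 3, and the cells were used from day 5.

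In a dividing cell, the origin recognition complex marks the sites where replication can begin, and Cdc6 and Cdt1 load the ring of MCM proteins there before S phase. The kinase Cdc7 with its partner Dbf4, together with Cdc45, the GINS complex and Mcm10, then turns the ring into an active helicase, after which polymerases, the clamp and the lagging strand enzymes copy the DNA. Many of these genes are known targets of E2F transcription factors and are expressed mainly in cycling cells, whereas several origin recognition subunits are made in resting cells too. Macrophage precursors divide in response to M-CSF and divide less as they mature.

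Values are log2 expression values after RMA, and every difference is LysM (+) minus MC4RTB/TB on that scale. Each group had a single array, so the spread between samples is unknown, no test was possible, and each difference describes these 2 arrays only. The base of the logarithm was taken from the method's name. Values reached 19.51 on both arrays, higher than RMA usually gives, and the folds, though not the directions, rest on that reading. The 23 background control probe sets had values from 3.09 to 6.81, with at most 0.09 between the arrays. A value inside that range cannot be told from background here. The defining macrophage genes were bright on both arrays: 9 of 10 listed were measured, from 12.41 to 18.86 in LysM (+) and from 12.98 to 19.04 in MC4RTB/TB, and 0 of them were 1.5-fold apart. Mc4r had values of 4.45 in LysM (+) and 4.57 in MC4RTB/TB, within background on both arrays, so it gave no check of the genotypes.

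Most replication genes had higher values in LysM (+) macrophages. Of the 46 measured genes, 27 were at least 1.5-fold higher in LysM (+), against a background of 6.98% of all named genes, and 18 were at least 2-fold higher, against 1.79%. Only Dna2 was at least 1.5-fold lower, against 5.51% of all named genes. The median difference was 0.84, or 1.79-fold, with the middle 50% of genes between 0.26 and 1.48, while the median over all named genes was -0.01. By any amount, 41 of the 46 were higher and 5 lower, where 9612 of all 19505 named genes were higher and 9892 lower. The arrays measured whole cultures, so a larger share of dividing cells and more RNA per cell cannot be told apart. At the 1.5-fold mark, Gins3 (0.63) and Gmnn (0.75) lay just inside and Pole2 (0.56) and Cdt1 (0.55) just outside.

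**Figure D1:**
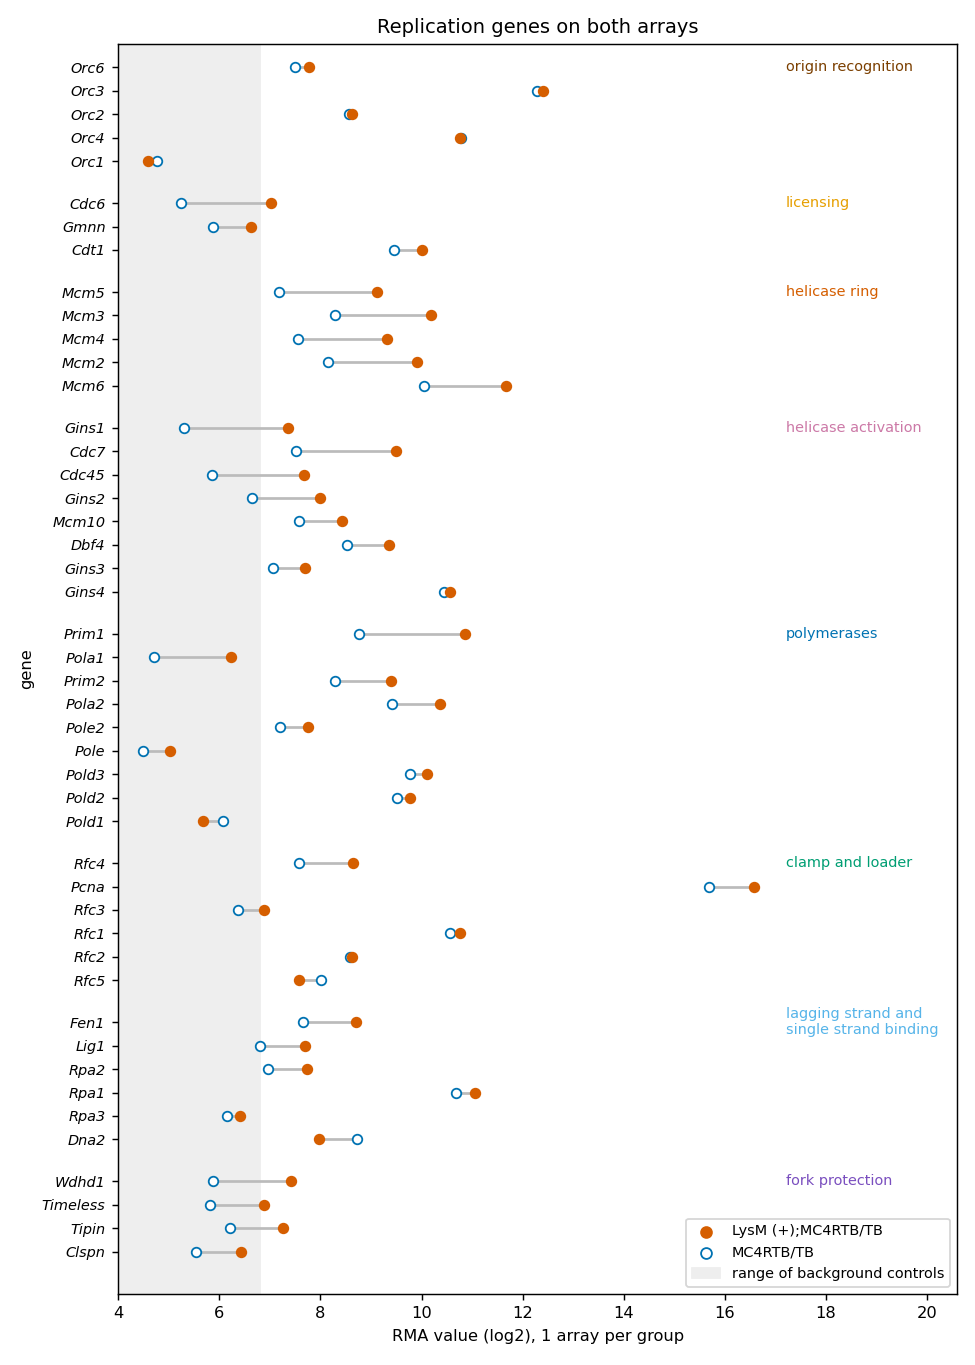
Log2 RMA values of the 46 measured replication genes on the x axis, grouped by role; filled points are the LysM (+);MC4RTB/TB array, open points the MC4RTB/TB array, and the shaded band is the range of the background controls, which ends at 6.81. The 5 helicase ring genes are widely separated between the arrays, whereas the points of Orc2, Orc3, Orc4, Rfc2 and Gins4 nearly coincide.

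Dim signal limits part of this count. For 16 of the 46 genes the MC4RTB/TB value was within the background range, and for 7 of these the LysM (+) value was as well. Among the 30 genes with both values above the background controls, 16 were at least 1.5-fold higher, where 10.0% of all such genes were. When every value below 6.81 was raised to 6.81, an alternative chosen after the data were seen, 20 of the 46 genes were still at least 1.5-fold higher, against 4.55% of all named genes, and the median difference was 0.50. By the mean of both arrays, the 16 brightest genes had a median difference of 0.69 and the next 14 one of 0.70, with 8 genes at least 1.5-fold higher in each set. The 16 dimmest, the same genes whose MC4RTB/TB value was within background, had a median of 0.97 with 11 genes past 1.5-fold; raised to 6.81, their median was 0.06 and 4 genes passed.

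**Figure D2:**
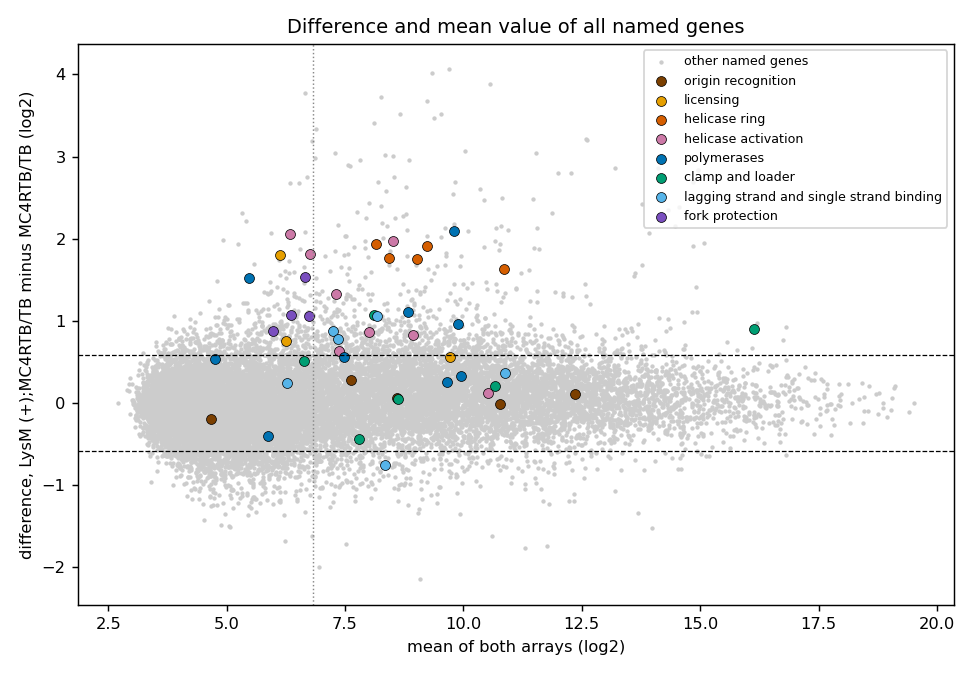
Difference between the arrays (y axis, log2, LysM (+);MC4RTB/TB minus MC4RTB/TB) against the mean of both arrays (x axis, log2), with all other named genes in pale grey and the replication genes coloured by role. Dashed lines mark 1.5-fold in each direction and the dotted line the highest background control, 6.81; replication genes lie above the upper line over a wide span of brightness, up to Pcna at the right.

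The promoters of these genes are shown because E2F-type letters were more common in them than in promoters at large, both in genes that differed between the arrays and in genes that did not. Promoter windows from RefSeq (GRCm38.p6), 250 bases before to 50 bases after each annotated start, were found for 39 of the 48 genes, 37 of them measured. They were searched on both strands for TTTCCCGC, TTTGGCGC, TTTCGCGC and TTTGCCGC, which are E2F-type sites, for the CHR-type letters TTTGAA and for the CCAAT box, CCAAT. Any E2F-type match, in any window of a gene with several, was found for 15 of the 37 genes (40.5%), against 2.26% of all 32851 windows and 3.38% of the 15691 measured genes with a window. The genes' windows were richer in G and C, with a median of 62.3% against 57.0% for measured genes, and the part of base composition in the share was not tested. Below are the 170 bases before the annotated start, read along the gene's own strand, with the E2F-type letters in capitals. They are given for Mcm5 and Mcm6, which were over 3-fold higher in LysM (+) with both values above background, for Cdc6, which was higher with its MC4RTB/TB value within background, and for Orc3, which was above background and differed by 0.11.
Mcm5, chr8:75109339-75109508, plus strand: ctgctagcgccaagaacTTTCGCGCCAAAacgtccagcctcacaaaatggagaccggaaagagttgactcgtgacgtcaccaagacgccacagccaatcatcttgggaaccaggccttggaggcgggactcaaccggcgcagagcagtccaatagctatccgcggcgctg
Mcm6, chr1:128359706-128359875, minus strand: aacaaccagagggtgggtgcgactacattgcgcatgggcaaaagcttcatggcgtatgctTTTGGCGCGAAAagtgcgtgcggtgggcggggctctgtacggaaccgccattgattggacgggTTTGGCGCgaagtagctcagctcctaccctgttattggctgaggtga
Cdc6, chr11:98907981-98908150, plus strand: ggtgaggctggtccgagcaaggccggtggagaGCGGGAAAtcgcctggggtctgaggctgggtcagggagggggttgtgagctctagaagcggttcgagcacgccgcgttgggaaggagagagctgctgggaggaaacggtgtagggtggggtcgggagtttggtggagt
Orc3, chr4:34614943-34615112, minus strand: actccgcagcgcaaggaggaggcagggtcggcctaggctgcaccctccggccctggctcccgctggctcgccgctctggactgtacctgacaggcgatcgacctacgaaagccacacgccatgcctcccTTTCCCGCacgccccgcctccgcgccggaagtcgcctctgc

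In Mcm5 the capitals are 2 overlapping sites that begin 153 and 149 bases before the start, 1 on each strand, and Mcm6 has such a pair, 110 and 106 bases before, and 1 more match 47 bases before. The single match of Cdc6 begins 138 bases before the start, and that of Orc3 41 bases before. Over the 37 genes, an E2F-type match was found for 8 of the 21 that were at least 1.5-fold higher by the deposited values (38.1%) and for 7 of the 16 that were not (43.8%). The median difference was 0.63 over the 15 genes with a match, from -0.40 for Pold1 to 1.93 for Mcm5, and 0.84 over the 22 without, from -0.75 for Dna2 to 2.09 for Prim1. CHR-type letters, known from promoters of mitotic genes, were found for 6 of the 21 higher genes and 1 of the other 16; their share was 17.9% of all windows and 17.8% of measured genes with a window. The CCAAT box was found for 12 of the 21 and 9 of the 16, with 37.4% of all windows and 42.2% of measured genes with a window. Of 76 matches in the windows of all 39 genes, with Mcm7 and Orc5 included, 6 overlapped another match. A match is a run of letters and not a measured binding site.

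**Figure D3:**
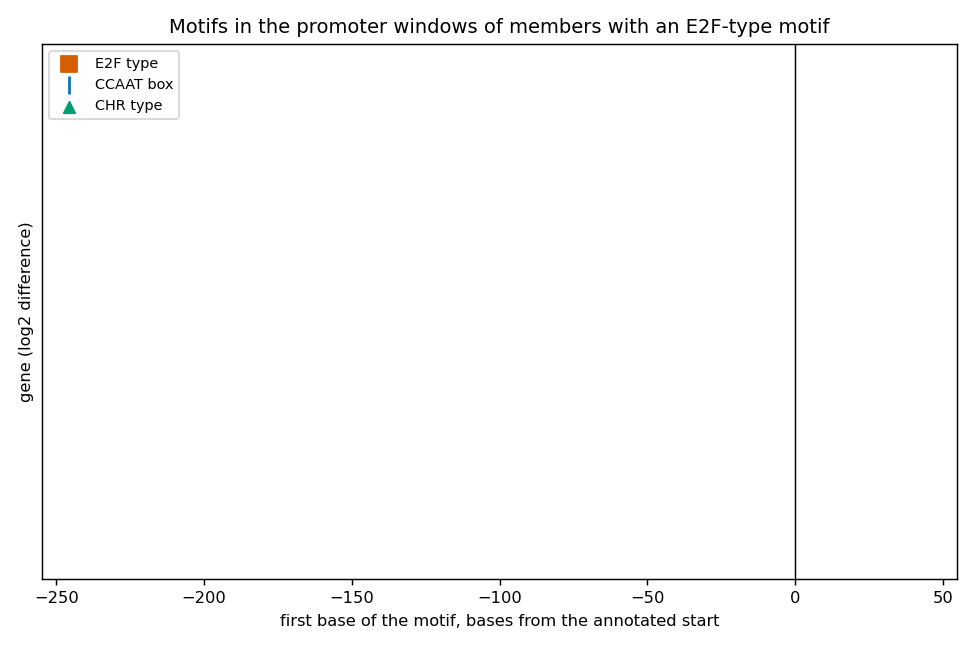
Frame for the position of each motif relative to the annotated start (x axis, bases) in promoter windows with an E2F-type match. No match is plotted, because incomplete records were dropped on drawing and every record had an empty field. Only the legend shows the marks for E2F-type, CCAAT box and CHR-type matches. The 15 measured replication genes with an E2F-type match had log2 differences from -0.40 for Pold1 to 1.93 for Mcm5.

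The origin recognition complex had the smallest median difference of the 8 roles, 0.05. Its 5 measured subunits differed by -0.19 to 0.27, and 0 of them were 1.5-fold apart in either direction. Orc3 had values of 12.40 in LysM (+) and 12.29 in MC4RTB/TB. Orc4 had 10.76 in LysM (+) and 10.78 in MC4RTB/TB, and Orc2 had 8.62 in LysM (+) and 8.57 in MC4RTB/TB. Orc2 to Orc5 form the core of the complex. Orc6, a small subunit needed for origin loading, had 7.77 in LysM (+) and 7.49 in MC4RTB/TB. These 4 were above background on both arrays. Orc1, the subunit best known for varying over the cell cycle, had 4.58 in LysM (+) and 4.77 in MC4RTB/TB, both within background, so it gives no measurement of that change.

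Among the licensing factors, Cdt1 lay well above background and just under 1.5-fold, whereas Cdc6 and geminin were dim. Cdt1, which brings the MCM ring to the origin, had values of 10.00 in LysM (+) and 9.45 in MC4RTB/TB, a difference of 0.55. Cdc6, the ATPase that loads the ring, had 7.03 in LysM (+) and 5.23 in MC4RTB/TB, a difference of 1.79 or 3.47-fold. The MC4RTB/TB value of Cdc6 was within background, and with that value raised to 6.81 the fold was 1.16. Gmnn, the geminin gene, whose product holds Cdt1 inactive after S phase begins, had 6.62 in LysM (+) and 5.87 in MC4RTB/TB, within background on both arrays.

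The MCM helicase ring differed strongly and evenly. All 5 measured ring genes were at least 3-fold higher in LysM (+), with differences between 1.63 and 1.93, and all 10 of their values were above background. Mcm5 had values of 9.12 in LysM (+) and 7.19 in MC4RTB/TB, a 3.81-fold difference. Mcm3 had 10.19 in LysM (+) and 8.28 in MC4RTB/TB, 3.74-fold apart. Mcm4 was 3.41-fold higher, at 9.32 in LysM (+) and 7.55 in MC4RTB/TB. Their products form a ring in fixed proportions, and the 5 differences spanned 0.30 on the log2 scale. Mcm2, at 9.90 in LysM (+) and 8.16 in MC4RTB/TB, was 3.36-fold higher. Mcm6, at 11.67 in LysM (+) and 10.05 in MC4RTB/TB, was 3.09-fold higher. All 5 ranked among the 129 largest of the 19505 differences in this direction.

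The factors that activate the helicase were also higher, but unevenly. Of 8 measured, 7 were at least 1.5-fold higher, and the median difference was 1.10. Cdc7, the kinase that phosphorylates the ring, had values of 9.49 in LysM (+) and 7.52 in MC4RTB/TB, 3.93-fold apart. Its regulatory subunit Dbf4 had 9.35 in LysM (+) and 8.52 in MC4RTB/TB, 1.77-fold apart. Cdc45, which joins the ring in the active helicase, had 7.67 in LysM (+) and 5.85 in MC4RTB/TB, a difference of 1.82. The lower value was within background, and raised to 6.81 it left a 1.81-fold difference. Mcm10, needed for the active helicase to leave the origin, had 8.43 in LysM (+) and 7.57 in MC4RTB/TB, 1.81-fold apart. The 4 subunits of the GINS complex differed by 0.12 to 2.06, and by 0.12 to 1.17 with values raised to 6.81. Gins1 had 7.37 in LysM (+) and 5.31 in MC4RTB/TB, a difference of 2.06 that was 1.46-fold with the lower value raised to 6.81. Gins2 had 7.98 in LysM (+) and 6.65 in MC4RTB/TB, a difference of 1.33 whose lower value was within background. GINS subunits act as a single unit between the helicase and the leading strand polymerase, and the other two differed less. Gins3 had 7.69 in LysM (+) and 7.06 in MC4RTB/TB, a difference of 0.63. Gins4 had 10.57 in LysM (+) and 10.45 in MC4RTB/TB, a difference of 0.12.

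Among the polymerases, the genes of the enzyme that starts each strand were higher, while 0 of the 5 measured genes listed for the elongating polymerases delta and epsilon reached 1.5-fold. All 4 genes of the polymerase alpha and primase complex were at least 1.5-fold higher in LysM (+) by the deposited values, although Pola1 was within background. Prim1, the catalytic primase subunit, had values of 10.85 in LysM (+) and 8.76 in MC4RTB/TB; its difference of 2.09, or 4.26-fold, was the largest of the 46 and ranked 71 of 19505. Prim2, the regulatory primase subunit, had 9.39 in LysM (+) and 8.28 in MC4RTB/TB, 2.15-fold apart. Pola2, the accessory subunit of polymerase alpha, had 10.38 in LysM (+) and 9.41 in MC4RTB/TB, 1.95-fold apart. Pola1, its catalytic subunit, had 6.23 in LysM (+) and 4.70 in MC4RTB/TB, both within background, so its difference of 1.53 is not a measured fold. Polymerase delta is the main enzyme of the lagging strand, and its 3 subunits differed by -0.40 to 0.33. Pold3 had 10.11 in LysM (+) and 9.78 in MC4RTB/TB, and Pold2 had 9.77 in LysM (+) and 9.52 in MC4RTB/TB. The catalytic subunit Pold1 had 5.68 in LysM (+) and 6.08 in MC4RTB/TB, within background on both arrays. For polymerase epsilon, which copies the leading strand, Pole2 had 7.76 in LysM (+) and 7.20 in MC4RTB/TB, a difference of 0.56. Its catalytic subunit Pole, at 5.02 in LysM (+) and 4.49 in MC4RTB/TB, was within background, so neither elongating enzyme had a measured difference in its catalytic subunit.

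The clamp was higher in LysM (+), while most of its loader was not. Pcna, the sliding clamp that tethers polymerases to DNA, had values of 16.59 in LysM (+) and 15.69 in MC4RTB/TB, a 1.86-fold difference. Of the 5 subunits of replication factor C, which opens the clamp and places it on DNA, 1 was at least 1.5-fold higher. That was Rfc4, with 8.64 in LysM (+) and 7.57 in MC4RTB/TB, 2.10-fold apart. Rfc1, the large subunit, had 10.76 in LysM (+) and 10.55 in MC4RTB/TB, and Rfc2 had 8.63 in LysM (+) and 8.59 in MC4RTB/TB. Rfc3 had 6.88 in LysM (+) and 6.37 in MC4RTB/TB, with the MC4RTB/TB value within background. Rfc5 was the exception in sign, with 7.58 in LysM (+) and 8.02 in MC4RTB/TB, 1.36-fold lower. The loader's differences spanned 1.51, from -0.44 to 1.07, although these subunits work as 1 complex.

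The lagging strand and single-strand binding genes went in both directions. Fen1, the nuclease that trims the flap of an Okazaki fragment, had values of 8.70 in LysM (+) and 7.65 in MC4RTB/TB, 2.07-fold apart. Lig1, the ligase that seals the fragments, had 7.69 in LysM (+) and 6.81 in MC4RTB/TB, 1.83-fold apart with the lower value at the edge of background. Dna2, a nuclease and helicase that acts on long flaps and in repair, had 7.96 in LysM (+) and 8.72 in MC4RTB/TB and was 1.69-fold lower, with both values above background. For replication protein A, which coats single-stranded DNA, Rpa2 had 7.74 in LysM (+) and 6.97 in MC4RTB/TB, a 1.71-fold difference. The large subunit Rpa1 had 11.05 in LysM (+) and 10.69 in MC4RTB/TB, 1.29-fold apart. Rpa3, at 6.40 in LysM (+) and 6.16 in MC4RTB/TB, was within background.

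All 4 fork protection genes were at least 1.5-fold higher by the deposited values, but each was within background on the MC4RTB/TB array. Wdhd1, which links the helicase to polymerase alpha, had values of 7.41 in LysM (+) and 5.88 in MC4RTB/TB, a difference of 1.53. With the lower value raised to 6.81, Wdhd1 was 1.51-fold apart and was the only one of the 4 still past 1.5-fold. The partners Timeless and Tipin travel with the fork and steady it. Timeless had 6.88 in LysM (+) and 5.82 in MC4RTB/TB, and Tipin had 7.27 in LysM (+) and 6.21 in MC4RTB/TB. With the lower values raised to 6.81, the folds were 1.05 for Timeless and 1.37 for Tipin. Clspn, the claspin gene, which relays the checkpoint signal to Chek1, had 6.42 in LysM (+) and 5.54 in MC4RTB/TB, within background on both arrays.

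**Figure D4:**
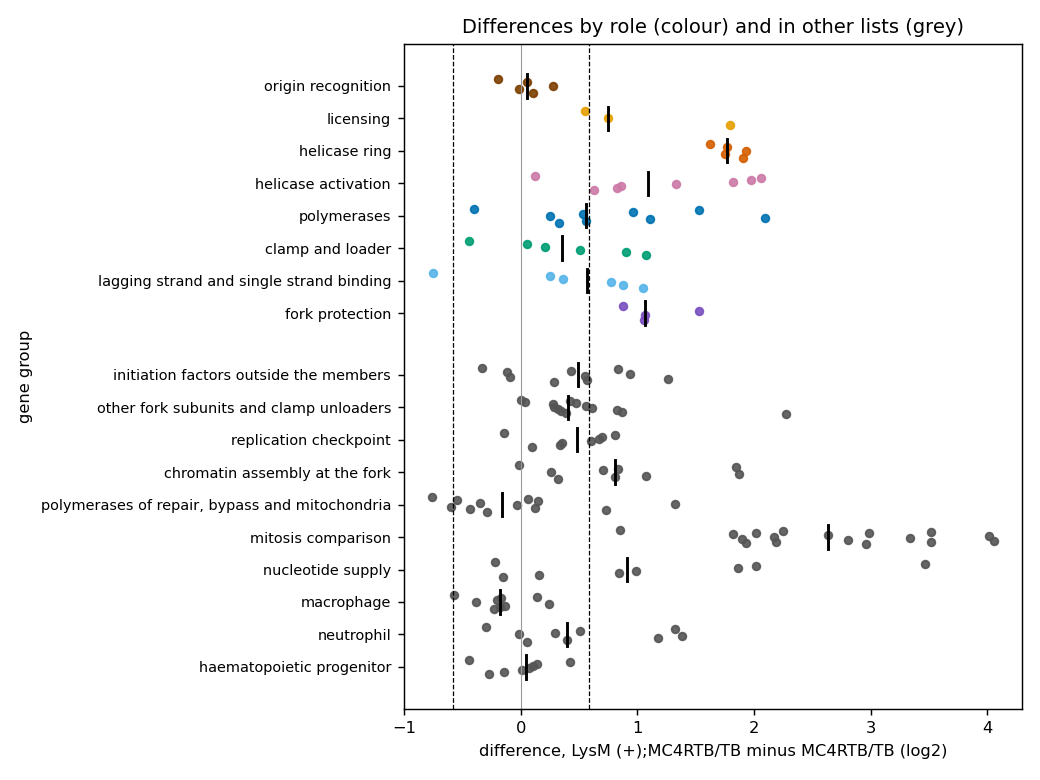
Differences on the log2 scale (x axis, LysM (+);MC4RTB/TB minus MC4RTB/TB) for the replication genes by role, in colour, and for other listed genes, in grey; each point is a gene, black bars are medians and dashed lines mark 1.5-fold. The helicase ring has a median of 1.77 and origin recognition one of 0.05. The median of the mitosis genes, 2.63, lies further right than that of any role, although their points start at 0.85 and overlap those of the roles.

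Other genes of replication, taken from 4 lists set beside the 48, had list medians between 0.40 and 0.81, against 0.84 for the 46. The difference between lists was not tested. Over all named genes, 6.98% were at least 1.5-fold higher and 5.51% lower. Of 10 initiation factors, 3 were at least 1.5-fold higher and 0 lower, with a median of 0.49. Mtbp, which helps load Cdc45, had 8.27 in LysM (+) and 7.01 in MC4RTB/TB, and Topbp1, which bridges initiation and the checkpoint, had 10.84 in LysM (+) and 10.01 in MC4RTB/TB. Of 14 other fork subunits, 4 were at least 1.5-fold higher and 0 lower, with a median of 0.40. Pclaf, a small protein that binds the clamp, had 9.87 in LysM (+) and 7.60 in MC4RTB/TB, 4.83-fold apart, a larger difference (2.27) than that of any of the 46. In the same list Pole3 was 1.82-fold and Pole4 1.77-fold higher; these accessory subunits of polymerase epsilon differed by 0.87 and 0.82, against 0.56 for Pole2. In the replication checkpoint list 4 of 8 genes were at least 1.5-fold higher and 0 lower, with a median of 0.48; Wee1, Chek1 and Hus1 were 1.75-fold, 1.62-fold and 1.52-fold higher. Among chromatin assembly genes 6 of 9 were at least 1.5-fold higher and 0 lower, with a median of 0.81. In that list the histone chaperone Asf1b was 3.65-fold higher, Uhrf1, which recruits the maintenance methyltransferase, 3.59-fold, and Nasp 1.78-fold. Chaf1b, within background on the MC4RTB/TB array, had 7.36 in LysM (+) and 6.29 in MC4RTB/TB.

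Of 8 nucleotide supply genes, 5 were at least 1.5-fold higher in LysM (+) by the deposited values and 0 lower by that amount. Their median difference was 0.91. By any amount, 6 were higher and 2 lower. Of the 8, 2 were within background on both arrays. With values raised to the highest background control, 4 were past 1.5-fold. Rrm2, the regulated subunit of ribonucleotide reductase, had values of 11.11 in LysM (+) and 7.65 in MC4RTB/TB, 11.0-fold apart. Its partner Rrm1 was 3.63-fold higher, thymidylate synthase, Tyms, 4.04-fold, and the salvage kinase Dck 1.79-fold. Polymerases outside the replicative set went both ways: of 12 genes of repair, lesion bypass and mitochondrial replication, 2 were at least 1.5-fold higher and 2 lower, and the median was -0.16. Polh, the polymerase that copies past ultraviolet damage, was 2.50-fold higher, at 8.73 in LysM (+) and 7.41 in MC4RTB/TB. Rev3l and Polk, other bypass polymerases, were 1.70-fold and 1.51-fold lower.

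Mitotic genes had a larger median difference, with single genes from 0.85 to 4.06. All 17 measured mitosis genes were at least 1.5-fold higher in LysM (+) by the deposited values, with a median of 2.63, or 6.19-fold, against 0.84, or 1.79-fold, over the 46 replication genes. Of the 17, 8 were within background on the MC4RTB/TB array and 2 of these on both arrays; with values raised to 6.81, 15 were past 1.5-fold. Ube2c, which marks mitotic proteins for destruction, and the mitotic kinase Plk1 were 16.7-fold and 16.1-fold higher. The kinetochore gene Nuf2 and the mitotic cyclin gene Ccnb2 were 11.5-fold and 11.4-fold higher. The difference between the lists was not tested.

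Markers of other cell types are given beside these results because a culture from marrow can hold other cells. Of 9 measured neutrophil markers, 3 were at least 1.5-fold higher in LysM (+) and 0 lower, with a median of 0.40. Their log2 values summed to 89.8 in LysM (+) and 85.0 in MC4RTB/TB, and 2 of the 9, Camp and Prtn3, were within background on both arrays. Ltf, Retnlg and Elane, granule or secreted proteins of neutrophils and their precursors, were the 3. Ltf was 2.60-fold higher, while Retnlg and Elane were within background on the MC4RTB/TB array and were 1.74-fold and 1.77-fold higher with values raised to 6.81. By any amount, 7 of the 9 were higher and 2 lower. The lower ones were Prtn3 and Mpo, with Mpo at 9.99 in LysM (+) and 10.29 in MC4RTB/TB. Ngp (16.32 in LysM (+) and 15.92 in MC4RTB/TB), S100a8 (13.21 and 12.92) and S100a9 (13.35 and 12.85) were bright on both arrays. Of 8 progenitor markers, 0 were 1.5-fold apart and 7 were within background on both arrays; their sums were 39.8 in LysM (+) and 39.9 in MC4RTB/TB. The erythroid, T cell, B cell, dendritic cell and fibroblast lists had 0 members at least 1.5-fold higher, where 6.98% of all named genes were. Their median differences were -0.16, -0.22, -0.10, -0.07 and -0.38. In the same order, 4 of 5, 4 of 5, 4 of 4, 4 of 6 and 1 of 5 measured genes were within background on both arrays. These medians and counts therefore rest largely on background values, except for the fibroblast list. The macrophage and progenitor lists had medians of -0.18 and 0.04. The members at least 1.5-fold lower were Tfrc, at 1.75-fold, and the fibroblast genes Col1a2 and Postn, at 1.52-fold and 1.51-fold. Tfrc, the transferrin receptor gene, is also expressed by dividing cells and macrophages. The part of neutrophil-lineage cells in the replication gene differences was not tested.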

How the data were processed

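Groups follow the genotype label, with 1 sample and 1 array each. The authors deposited log2 values, 1 per probe set. Per the submitters' processing notes, RMA and Affymetrix Expression Console were used, with no version given. The platform annotation gave 1 gene symbol to 19572 of 28846 probe sets; all were matched by Entrez ID to RefSeq (GRCm38.p6) and covered 19505 genes. The value of a gene with several probe sets (55 genes) was their mean. No member shared both its values with another gene (0 genes). With 1 array per group no test was run; a gene was counted at a 1.5-fold difference, with no filter on dim genes, and background was the range of the 23 control probe sets. Named are all measured members, Mc4r, Lyz2, and, of each other list, up to 4 genes with the largest difference among those past 1.5-fold with a value above background. Camp, Prtn3, Mpo, Ngp, S100a8, S100a9 and the neighbouring genes were chosen otherwise, after values were known. The members and lists were chosen with earlier results of these data known. The counting, normalization and motif steps were tested on simulated data. Python 3.11.15 with pandas 2.3.3 and numpy 2.4.6 was used. Alternatives were 3 other normalizations, the brightest probe set, 3 filters, a 2-fold mark, a rank measure and, added later, raising dim values to background.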

Additional observations from a re-analysis of the deposited data

How the results depend on the processing

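The count of 27 replication genes at least 1.5-fold higher and 1 lower was unchanged by centring on the median difference, which was only -0.01. Taking the brightest probe set per gene could not change it, because each member had 1 probe set. The count became 28 and 1 with quantile normalization and stayed 27 and 1 with loess. The median difference lay between 0.76 and 0.85 under these 4. With only genes whose lower value was above the background controls, 16 of 30 remaining members were higher. At 2-fold, 0 members were lower. Raising values to the highest background control, chosen after the data were seen, brought the median difference to 0.50. By rank, 31 of 46 were among the highest 10% of all differences. Quantile normalization and loess took Pole (0.62 under each) past 1.5-fold, and loess took Gins3 (0.55) below it. The sign of Orc2 and Rfc2 turned under quantile normalization (-0.01 and -0.02) and under loess (-0.07 and -0.08), and that of Gins4 (-0.01) and Orc3 (-0.0049) under loess. No paired analysis was possible because each group had 1 array, and no replicate could be left out. The number of arrays and the unknown detection of each probe set limit the precision.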

Other observations

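Several replication genes share a promoter region with a gene transcribed away from them. Such a neighbour has its annotated start at most 500 bases upstream on the other strand in RefSeq (GRCm38.p6). It was found for 14 of the 39 genes with a promoter window, and in 8 cases both genes were measured. The rest of the 48 genes had no window and could not be searched. These neighbours were chosen by position, with the values already known. Of the 8, 3 were at least 1.5-fold higher in LysM (+), where 6.98% of all named genes were, 0 were lower by that amount, and their median difference was 0.56. Ufd1, which helps extract ubiquitylated proteins from complexes, starts 322 bases from Cdc45 and had values of 10.43 in LysM (+) and 9.50 in MC4RTB/TB, a difference of 0.93 against 1.82 for Cdc45. Socs4, 63 bases from Wdhd1, differed by 0.65, and Slc25a40, 122 bases from Dbf4, by 0.59. Rars2, 15 bases from Orc3, had 7.71 in LysM (+) and 7.16 in MC4RTB/TB, a difference of 0.55 against 0.11 for Orc3. Prpf38a, 118 bases from Orc1, had 8.11 in LysM (+) and 7.54 in MC4RTB/TB, with Orc1 itself within background. The lowest of the 8 was Smyd4, 50 bases from Rpa1, at -0.29, with values within background on both arrays.

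Over all 531 measured genes with an E2F-type match in a promoter window, replication genes included, 87 (16.4%) were at least 1.5-fold higher in LysM (+) and the median difference was 0.11. Among the replication genes with a match, that count was 8 of 15, beside 21 of all 37 measured replication genes with a window, match or not. Over all named genes, with a promoter window or not, the share was 6.98%, which is not a share of the same set. It was 8.75% of the 2790 measured genes with a CHR-type match and 8.61% of the 6617 with a CCAAT box. The share over all measured genes with a window was not computed.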
